A study of Mus musculus with 6 samples.

Results

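The MHC class II genes were described in whole lung of mice labelled ICR, DBA and C57, with and without exposure to cigarette smoke. All probe sets whose single gene symbol was H2-Aa, H2-Ab1, H2-Ea, H2-Eb1, H2-DMa, H2-DMb1, H2-Oa, H2-Ob, Cd74 or Ciita were taken, which gave 10 genes of 8251 and 11 probe sets of 12488. All 11 probe sets passed the filter on low signal, which used the mean over all 6 arrays, as did 7453 of the 12488. A further probe set carried the symbols of both H2-DMb1 and H2-DMb2 and was given to neither gene. There were 6 arrays, 1 for each of ICR smoked, ICR control, DBA smoked, DBA control, C57 smoked and C57 control mice. Smoked mice received the smoke of 3 cigarettes a day on 5 days a week for 4 weeks, and control mice carry the label normal lung. ICR is an outbred stock, and the labels give neither the substrain of the others nor an age, a sex or an H2 haplotype. Titles call every sample mouse 1, and no source used here says if RNA of several animals was pooled.

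MHC class II molecules are pairs of an alpha and a beta chain that show peptides from endocytosed proteins to CD4+ T cells. In the mouse they come as I-A (H2-Aa with H2-Ab1) and I-E (H2-Ea with H2-Eb1). The chains are assembled around the invariant chain Cd74, whose remaining fragment is exchanged for peptide by H2-DM (H2-DMa with H2-DMb1), and H2-DO (H2-Oa with H2-Ob) restrains H2-DM. Ciita is the transactivator that the genes share and is induced by interferon gamma. In lung, class II is carried mainly by dendritic cells, B cells and macrophages, and also by alveolar type II cells. In whole tissue, fewer cells of a type and less RNA per cell cannot be told apart.

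The class II promoters are known for an X box followed by a Y box, through which Ciita is recruited. RefSeq windows of the GRCm38.p6 assembly, 250 bases before to 50 after the gene start, were matched for 6 of the 10 genes: H2-Aa, H2-Eb1, H2-DMa, H2-DMb1, H2-Oa and H2-Ob. In 5 of these 6 genes the letters GNAAC were followed on the same strand by TGATTGG after 20 to 40 bases, an arrangement held by 0.572% of all 32851 windows of this length searched on both strands. Both the letters and the spacing were chosen to fit these genes after their sequences were read, so the 5 of 6 is a description and not evidence of enrichment. The pattern chosen earlier is given after the sequences, and TGATTGG overlaps the shorter Y core CCAAT on the opposite strand. The stretch is shown for the 5 genes that hold it, with both letter groups in capitals and 15 bases on each side:
H2-Aa, chr17:34287852-34287919, minus strand: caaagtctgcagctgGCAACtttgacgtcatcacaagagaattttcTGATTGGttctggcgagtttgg
H2-Eb1, chr17:34305761-34305827, plus strand: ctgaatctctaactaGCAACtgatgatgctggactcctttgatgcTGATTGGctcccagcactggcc
H2-DMb1, chr17:34153082-34153149, plus strand: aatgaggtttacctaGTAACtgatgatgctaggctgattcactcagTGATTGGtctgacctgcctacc
H2-Oa, chr17:34092288-34092355, plus strand: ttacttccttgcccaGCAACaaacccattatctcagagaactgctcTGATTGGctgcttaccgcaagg
H2-Ob, chr17:34238803-34238867, plus strand: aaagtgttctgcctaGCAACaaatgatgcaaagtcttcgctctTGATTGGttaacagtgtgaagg

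These are reference genome bases, not those of the mice studied. The distance between the 2 letter groups was 26 bases in H2-Aa, H2-DMb1 and H2-Oa, 25 in H2-Eb1 and 23 in H2-Ob. The core CCAAT on its own was present in all 6 genes and in 37.4% of all windows. A stricter X box core, CCTNGNNAC, was present in H2-DMb1 and H2-Ob and in 15.8% of all windows. The earlier choice of pattern, this core 10 to 30 bases before ATTGG, was met in the same 2 of 6 genes and in 0.384% of all windows. The matches describe letters in the window, and binding was not measured.

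Values are given as deposited intensity, on a linear scale, and as normalized level, which is log2 of the intensity plus a constant after quantile normalization between arrays. Median deposited intensity was 25.9 for ICR smoked and 52.2 to 84.8 on the 5 other arrays. The 3' to 5' ratio of the beta-actin control probe sets was 4.75 for ICR smoked and 1.63 for ICR control. It was 1.66 and 1.46 for DBA smoked and control, and 2.51 and 2.75 for C57 smoked and control. The same ratio of Gapdh was 2.39 and 1.11 in ICR, 0.95 and 0.97 in DBA and 1.38 and 1.69 in C57, in the same order. Both C57 arrays thus lay above both DBA arrays, and strain and this ratio cannot be told apart in that comparison. Sftpc, a marker of alveolar type II cells, had deposited intensities of 7184 to 10579. Each group within a strain had 1 array. Strains were therefore compared over 2 arrays each, with smoke as a term, and smoke over 3 pairs, with strain as a block, both in limma, with p-values adjusted by Benjamini and Hochberg's method across the 7453 probe sets. A probe set is called at an adjusted p below 0.05. The number of arrays limits the precision, and since the labels do not name separate animals the p-values measure only the spread between these samples. The 3 strain comparisons share arrays and are given side by side.

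The strains differed in the I-E chains. H2-Ea, the I-E alpha chain, was high in DBA, low in ICR and lowest in C57. H2-Eb1, the I-E beta chain, was lower in ICR than in both other strains. In ICR against DBA, 2 of the 11 probe sets were called, both lower in ICR (1.17% of all probe sets were called). In ICR against C57, 2 of 11 were called, H2-Ea higher and H2-Eb1 lower in ICR (2.29% of all). H2-Ea passed the filter on low signal through its high DBA values, and both C57 arrays read it below the added constant. Its call in ICR against C57 is therefore given as a description only. In DBA against C57, 1 of 11 was called, H2-Ea higher in DBA (1.73% of all).

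H2-Ea lies on chromosome 17 from 34341952 to 34344645 (GRCm38.p6). Its deposited intensity was 17.7 in ICR smoked, 71.6 in ICR control, 1450.3 in DBA smoked, 1594 in DBA control, 1.83 in C57 smoked and 1.96 in C57 control. No 2 strains overlapped. The DBA arrays placed it at the 97.0 and 97.9 percentiles of all probe sets and the C57 arrays at the 5.43 and 5.48 percentiles. The filter on low signal used the mean over all arrays. H2-Ea therefore entered the test of ICR against C57 through its high DBA values. The normalized level averaged 5.97 in ICR, 10.27 in DBA and 3.32 in C57. On the log2 scale, H2-Ea in ICR differed from DBA by -4.30 (SE 0.29, limma, adjusted p = 0.000374), which is 19.8-fold lower. It was higher in ICR than in C57 by 2.65 (SE 0.29, limma, adjusted p = 0.00284) and higher in DBA than in C57 by 6.96 (SE 0.29, limma, adjusted p = 1.72e-05). Both C57 intensities lay below the constant of 8.05 that was added, so the size of the differences from C57 depends on that constant. ICR smoked, at 17.7, was also near the constant, so the size of the ICR against DBA difference depends on it too.

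The RefSeq annotation, which is of a C57BL genome, lists H2-Ea as a transcribed pseudogene and the 9 other genes as protein coding. Mice of the H2-b haplotype, the C57BL strains among them, are known to lack I-E on the cell surface because the alpha chain gene is not transcribed. The labels give C57 without a substrain. The 2 ICR arrays differed, with H2-Ea at percentile 42.7 in ICR smoked and 56.8 in ICR control. Probe sequences were not analysed here, and class II chains vary between strains, so the part of base differences under the probes was not tested.

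H2-Eb1 (chromosome 17, 34305867 to 34316674) had deposited intensities of 173 in ICR smoked, 508 in ICR control, 1462 in DBA smoked, 2043 in DBA control, 1356 in C57 smoked and 1675 in C57 control. The ICR arrays lay below all others, and the DBA and C57 arrays overlapped. On the normalized scale the mean was 8.83 in ICR, 10.46 in DBA and 10.31 in C57. The difference was -1.63 for ICR against DBA (SE 0.21, limma, adjusted p = 0.00814) and -1.48 for ICR against C57 (SE 0.21, limma, adjusted p = 0.00978), which is 3.09-fold and 2.79-fold lower. For DBA against C57 it was 0.15 with a 95% confidence interval of -0.32 to 0.62 (limma, adjusted p = 0.877). In C57 the I-E beta chain was read at a level within 0.62 of that in DBA, while the alpha chain stood at the bottom of the scale. Without the ICR control array the differences of H2-Eb1 were -1.66 from DBA and -1.51 from C57, with adjusted p-values of 0.0912 and 0.0977 in limma, and H2-Ea differed from C57 by 2.31 with an adjusted p of 0.0565. Without the ICR smoked array those of H2-Eb1 were -1.59 (adjusted p = 0.0913, limma) and -1.45 (adjusted p = 0.0561, limma).

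**Figure D1:**
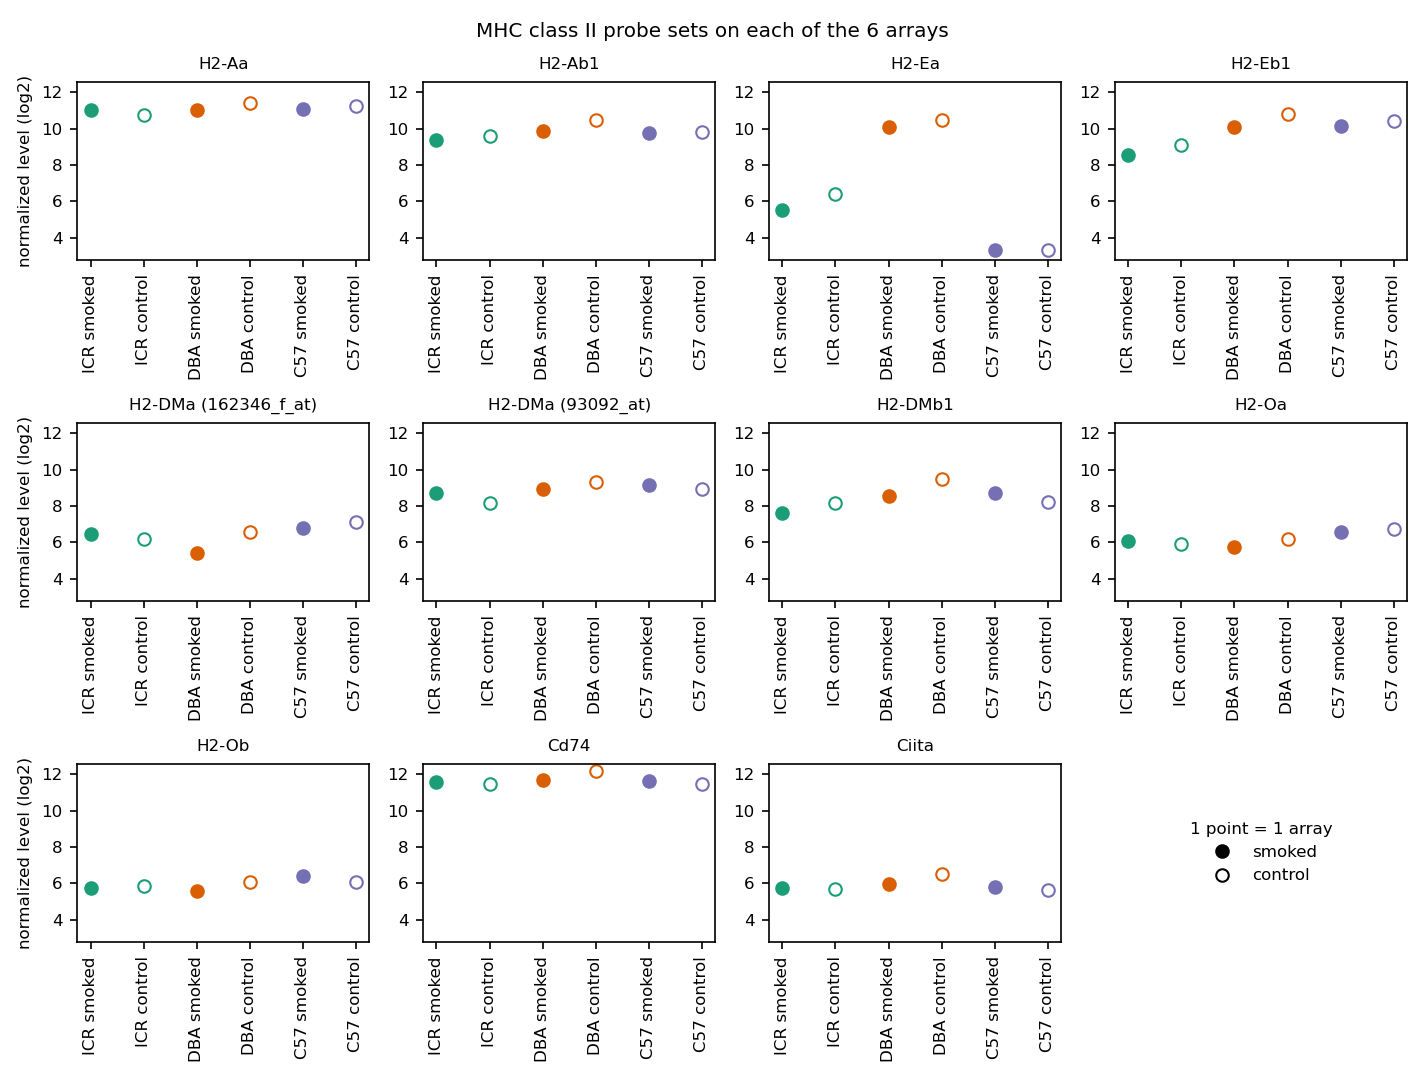
Normalized level (log2, y axis) of each MHC class II probe set on the 6 arrays (x axis), 1 point per array, filled for smoked and open for control. H2-Ea separates the 3 strains, H2-Eb1 is lowest on the 2 ICR arrays, and the other probe sets vary less.

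The I-A chains did not differ by the test in any strain comparison. H2-Aa (chromosome 17, 34282744 to 34287823), the I-A alpha chain, had deposited intensities of 1097 in ICR smoked, 1570.0 in ICR control, 2730.3 in DBA smoked, 3224 in DBA control, 2504 in C57 smoked and 2827 in C57 control. Normalized, it averaged 10.89 in ICR, 11.24 in DBA and 11.16 in C57 and stood between percentiles 98.4 and 99.2 of every array. H2-Ab1 (chromosome 17, 34263227 to 34269418), the I-A beta chain, had deposited intensities of 315 in ICR smoked, 704 in ICR control, 1298 in DBA smoked, 1602 in DBA control, 1009 in C57 smoked and 1088 in C57 control. Its normalized arrays did not overlap between strains, with means of 9.47 in ICR, 10.19 in DBA and 9.80 in C57. The difference of ICR from DBA was -0.71 with an interval of -1.20 to -0.23, which did not pass adjustment (limma, adjusted p = 0.165). For H2-Aa the intervals were -0.82 to 0.13 for ICR against DBA, -0.74 to 0.21 for ICR against C57 and -0.39 to 0.56 for DBA against C57.

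H2-DM and H2-DO, which edit the peptide cargo, were not called with all 6 arrays and the settings used here. H2-DMb1 (chromosome 17, 34153191 to 34160229) had deposited intensities of 86.5 in ICR smoked, 264 in ICR control, 530.3 in DBA smoked, 775 in DBA control, 486 in C57 smoked and 352 in C57 control. The normalized ICR arrays lay below those of the other strains, with a difference of -1.13 from DBA (interval -1.87 to -0.39, limma, adjusted p = 0.149) and of -0.59 from C57 (limma, adjusted p = 0.382). The difference from DBA was called in 4 of 15 alternatives: without scaling (-2.02), without the DBA smoked array (-1.55) and without either C57 array (-1.13 in each), with adjusted p-values in limma of 0.0316, 0.0074, 0.0250 and 0.0232. Its probe set is of a kind that can read related transcripts, and the neighbouring copy H2-DMb2 may contribute to it. H2-DMb2, on a probe set of its own, differed by -0.80 for ICR against DBA and by -0.84 for ICR against C57 (limma, adjusted p = 0.287 and 0.226).

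The 2 probe sets of H2-DMa (chromosome 17, 34119693 to 34139101) disagreed in comparisons with DBA and not in ICR against C57. Probe set 93092_at had deposited intensities of 199.8 in ICR smoked, 263 in ICR control, 686 in DBA smoked, 702 in DBA control, 648 in C57 smoked and 596 in C57 control. Probe set 162346_f_at had 37.6 in ICR smoked, 60.1 in ICR control, 53.7 in DBA smoked, 106 in DBA control, 114 in C57 smoked and 155 in C57 control. The first differed by 0.09 and the second by -0.96 for DBA against C57 (limma, adjusted p = 0.949 and 0.320). They differed by -0.68 and 0.33 for ICR against DBA (limma, adjusted p = 0.257 and 0.696). For ICR against C57 both lay below 0, at -0.59 and -0.64, with no overlap of arrays on either, and neither was called (limma, adjusted p = 0.274 and 0.387). Without the DBA control array the second was called lower in DBA than in C57, at -1.54 (limma, adjusted p = 0.0211).

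H2-Oa (chromosome 17, 34092379 to 34095234) had deposited intensities of 28.0 in ICR smoked, 48.7 in ICR control, 71.3 in DBA smoked, 78.8 in DBA control, 98.5 in C57 smoked and 111 in C57 control. H2-Ob (chromosome 17, 34238905 to 34245908) had 21.0 in ICR smoked, 46.2 in ICR control, 60.9 in DBA smoked, 74.3 in DBA control, 85.7 in C57 smoked and 63.7 in C57 control. Both sat near the middle of the arrays, between percentiles 43.4 and 61.8. On the normalized scale H2-Oa differed from C57 by -0.66 in ICR and by -0.68 in DBA (limma, adjusted p = 0.270 and 0.402), and the 2 C57 arrays lay above the 4 others. For H2-Ob the differences from C57 were -0.44 in ICR and -0.40 in DBA (limma, adjusted p = 0.496 and 0.731).

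Cd74, the invariant chain, is the one member on chromosome 18, and Ciita lies on chromosome 16 from 10480014 to 10531064. Cd74 had deposited intensities of 1736 in ICR smoked, 2534 in ICR control, 4314 in DBA smoked, 5485 in DBA control, 3899 in C57 smoked and 3215 in C57 control. It stood at or above percentile 99.2 of every array. Ciita had 21.3 in ICR smoked, 40.4 in ICR control, 83.8 in DBA smoked, 101 in DBA control, 50.3 in C57 smoked and 44.7 in C57 control. After normalization the DBA arrays were the 2 highest for both genes. DBA differed from C57 by 0.38 for Cd74 (interval -0.07 to 0.84) and by 0.54 for Ciita (interval -0.15 to 1.24), and ICR differed from C57 by -0.03 and 0.01, none of them called (limma, adjusted p = 0.539, 0.586, 0.958 and 0.986). ICR differed from DBA by -0.41 for Cd74 and -0.53 for Ciita (limma, adjusted p = 0.365 and 0.440).

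**Figure D2:**
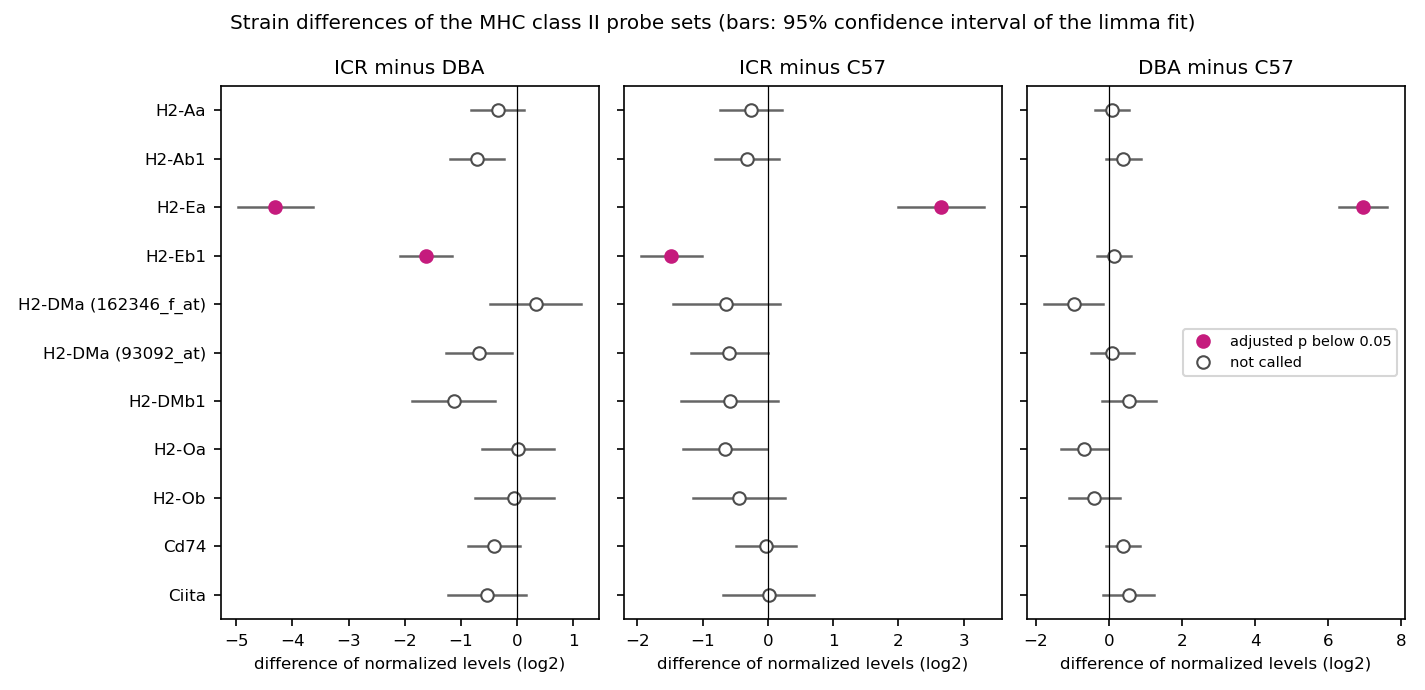
Difference of normalized levels (log2, x axis) between strains for each MHC class II probe set, with the 95% confidence interval of the limma fit as bars and called probe sets filled. H2-Ea is called in all 3 panels and H2-Eb1 in both panels with ICR. H2-Ea entered the panel of ICR against C57 through its high DBA values.

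By the simpler count of arrays that did not overlap, 7 of 11 probe sets separated ICR from DBA (47.9% of all probe sets), 9 of 11 separated ICR from C57 (51.2% of all) and 6 of 11 separated DBA from C57 (52.5% of all). Over the 10 genes, the median difference was -0.61 for ICR against DBA, -0.38 for ICR against C57 and 0.27 for DBA against C57, where all genes tested had medians of 0.02, -0.03 and -0.05. Of the 10 genes, 9 lay below 0 for ICR against DBA, 8 below 0 for ICR against C57 and 8 above 0 for DBA against C57.

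Smoke called no class II gene. Across the 3 pairs, 0 of 11 probe sets passed (0.0403% of all probe sets did), each with an adjusted p of 0.99995 in limma, and 1 had an unadjusted p below 0.05 (1.64% of all). Smoked and control arrays overlapped for all 11 (3.56% of all probe sets did not overlap). The one with the small unadjusted p was H2-Eb1, whose normalized level was 8.55 in smoked and 9.11 in control ICR, 10.09 in smoked and 10.82 in control DBA, and 10.17 in smoked and 10.45 in control C57. The smoked array was lower in all 3 pairs, by a mean difference of -0.52 (SE 0.17, interval -0.90 to -0.14, n = 3 pairs, limma, unadjusted p = 0.013). For the abundant H2-Aa the interval was -0.48 to 0.29 and for Cd74 -0.44 to 0.31. The median over the 11 probe sets was -0.12, and 10 were below 0.

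Within pairs, the smoked minus control difference of normalized levels had no common sign for most members. The I-A alpha chain H2-Aa differed by 0.30 in ICR, -0.40 in DBA and -0.18 in C57, and the I-A beta chain H2-Ab1 by -0.22 in ICR, -0.58 in DBA and -0.03 in C57. H2-Ea differed by -0.87 in ICR and -0.39 in DBA, and both C57 arrays read it at 3.32. ICR is outbred and no haplotype is given, so smoke and genotype cannot be told apart in the ICR pair. The ICR smoked array also had the higher beta-actin 3' to 5' ratio (4.75 against 1.63) and the lower median intensity (25.9 against 52.2). Smoke cannot be told apart from these in that pair either. Cd74 and Ciita each lay above 0 in ICR and C57 and below 0 in DBA, with Cd74 at 0.11 in ICR, -0.47 in DBA and 0.17 in C57 and Ciita at 0.07 in ICR, -0.54 in DBA and 0.14 in C57. H2-DMb1, a chain of the peptide editor, differed by -0.60 in ICR, -0.88 in DBA and 0.51 in C57. The probe set that lists H2-DMb1 together with H2-DMb2 differed by -0.01 in ICR, -0.49 in DBA and 0.73 in C57. H2-DMa (93092_at) was at 0.55 in ICR, -0.38 in DBA and 0.17 in C57. Of the H2-DO chains, which restrain H2-DM, H2-Oa was at 0.19 in ICR, -0.41 in DBA and -0.12 in C57, and H2-Ob at -0.11 in ICR, -0.53 in DBA and 0.35 in C57.

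The pairs differed in how the class II genes lay. In the DBA pair all 11 probe sets were lower in the smoked array (45.9% of all probe sets were), from -1.17 to -0.38 with a median of -0.53. Only H2-DMa (162346_f_at) reached a 2-fold difference there (2.36% of all probe sets were 2-fold or more lower). In the ICR pair 5 of 11 were lower in the smoked array (48.9% of all), with a range of -0.87 to 0.55, and in the C57 pair 6 of 11 (51.6% of all), with a range of -0.35 to 0.51. H2-Ea gave the lowest ICR value and H2-DMb1 the highest C57 value.

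Whether the difference of one strain departed from that of the others was fitted with 1 residual degree of freedom. Each such value rests on 1 pair, whose own spread was not measured, and the 3 fits use the same pairs. It called 0 of 11 probe sets for ICR (0% of all), 0 of 11 for DBA (0.711% of all) and 0 of 11 for C57 (0.134% of all). The median departure over the 11 probe sets was -0.61 for DBA and 0.36 for C57. The largest in C57 was H2-DMb1 at 1.25.

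**Figure D3:**
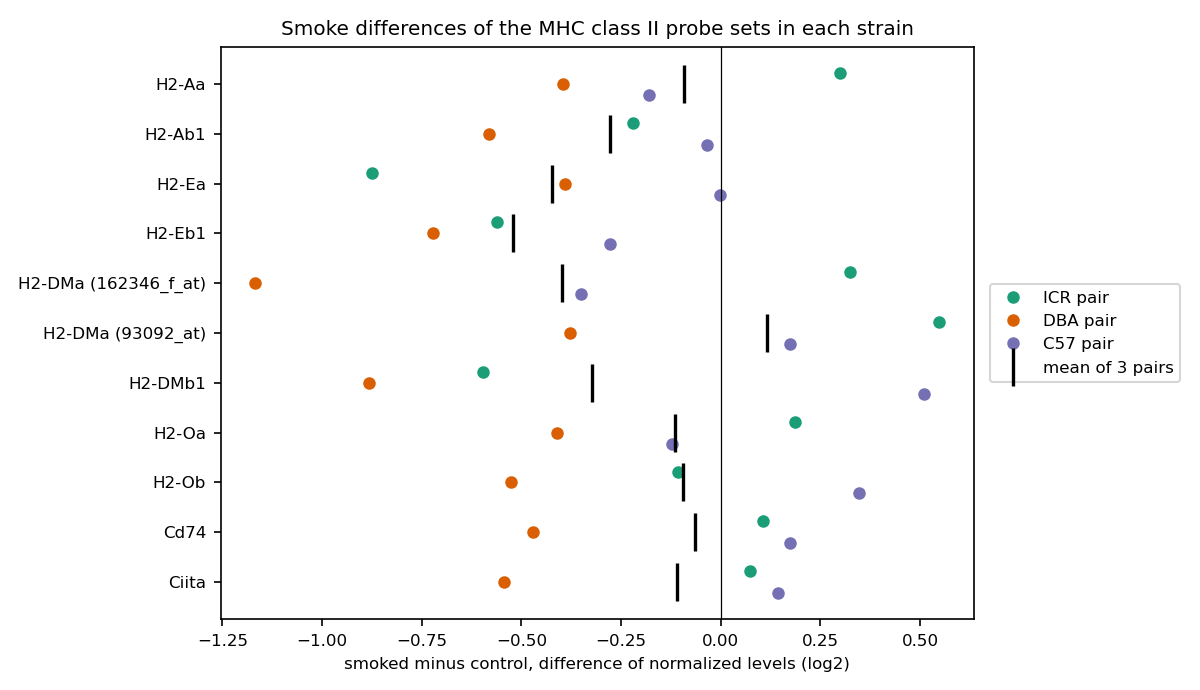
Smoked minus control difference of normalized levels (log2, x axis) for each MHC class II probe set, 1 point per strain pair and a bar for the mean of the 3 pairs. The DBA points all lie left of 0, between -1.17 and -0.38, and the ICR and C57 points lie on both sides.

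The DBA control array stood apart in this set and in others. It held the highest normalized level of 8 of the 11 probe sets, H2-DMa (162346_f_at), H2-Oa and H2-Ob being the others. The summed normalized intensity of the 10 genes was 6994 in ICR smoked, 6661 in ICR control, 9569 in DBA smoked, 13600.0 in DBA control, 8556 in C57 smoked and 8536 in C57 control. The 6 neutrophil markers summed to 14440.0 in DBA control and to 844 to 3091 on the 5 other arrays. Of these, Ngp, Camp, S100a8 and S100a9, granule and alarmin proteins, departed in the DBA pair from the mean of the other pairs by -6.97 to -4.11 on the log2 scale. The other markers of the list, Ltf and Csf3r, departed less, by -1.68 and -0.77. All are values of 1 pair without a spread of its own. Ngp had deposited intensities of 6.42 in DBA smoked and 2551 in DBA control. The part of these cells in the DBA difference was not tested.

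Markers of the class II bearing cells were not called for smoke or between strains in any of the lists for B cells (7 of 8 genes on the array tested), dendritic cells (7 of 9) and macrophages (5 of 8), or for the 1 T cell gene tested, Cd4. In the DBA pair the B cell sum was 488 in the smoked and 774 in the control array, and the macrophage sum was 1515 in the smoked and 3903 in the control array. In the C57 pair these sums were 1042 in the smoked and 721 in the control array for B cells and 2762 in the smoked and 1467 in the control array for macrophages. In the ICR pair they were 783 in the smoked and 659 in the control array for B cells and 2831 in the smoked and 3051 in the control array for macrophages. The B cell genes did not share a sign in any pair. They ranged from -1.28 (Cd79b) to 0.26 (Cd22) in DBA, with Fcer2a also above 0. The range was -0.29 (Blk) to 1.03 (Ms4a1) in C57 and -0.14 (Ms4a1) to 0.78 (Pax5) in ICR. The macrophage gene Chil3, a chitinase-like protein, differed between the smoked and control arrays by -0.33 in ICR, -2.63 in DBA and 1.38 in C57 on the log2 scale, with 1 array on each side. The other macrophage genes tested differed by -0.06 to 0.35 in ICR, -0.84 to -0.29 in DBA and 0.07 to 0.71 in C57. Chil3 had deposited intensities of 447 in DBA smoked, 2262 in DBA control, 1663 in C57 smoked and 660 in C57 control. It therefore carried most of the difference of the macrophage sums in these pairs. Dendritic cell sums ran from 504 to 671 over the 6 arrays. How far the numbers of these cells enter the class II levels was not tested.

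**Figure D4:**
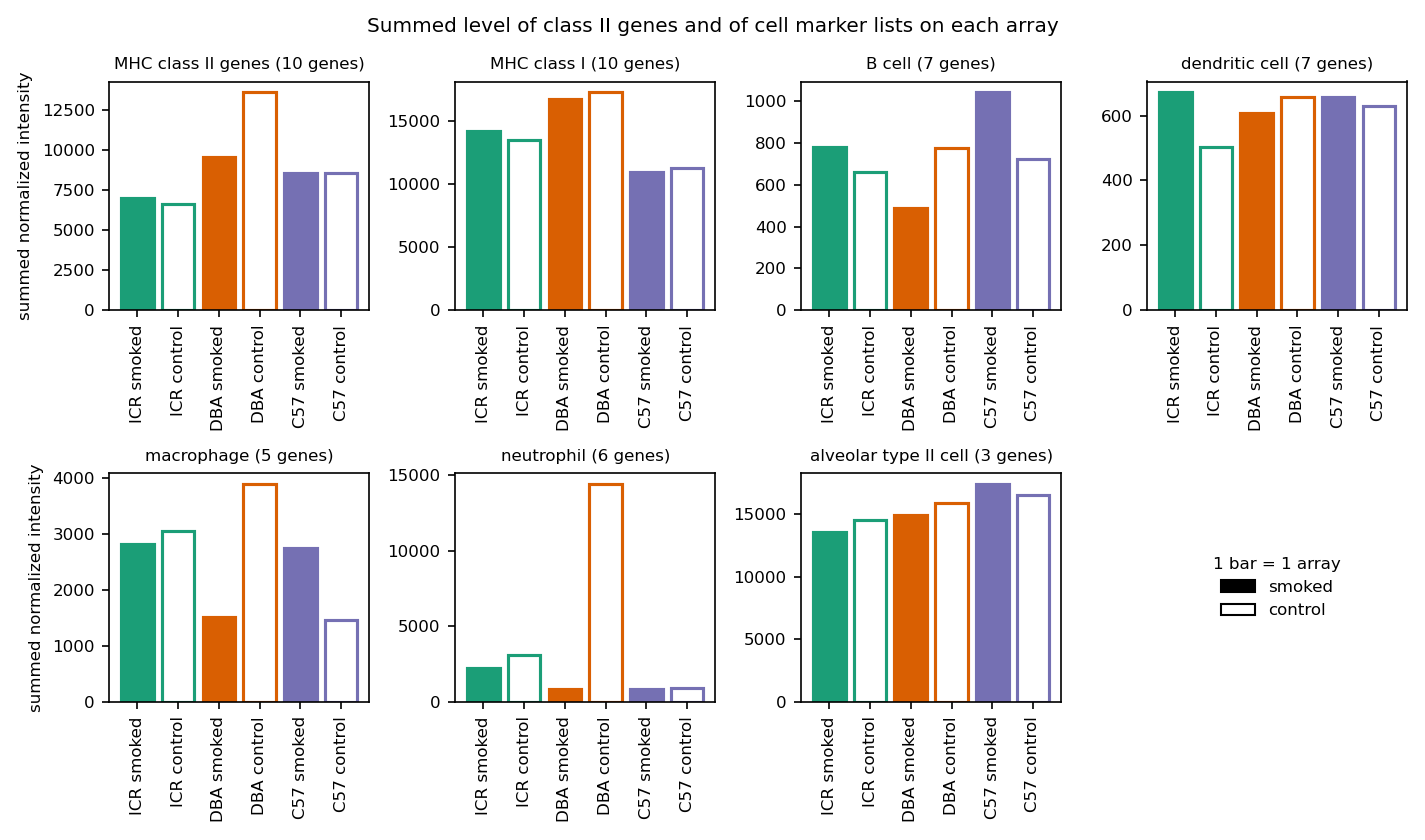
Summed normalized intensity (y axis, from 0) of the class II genes, the class I genes and 5 cell marker lists on each of the 6 arrays (x axis), 1 bar per array. DBA control is highest for class II, at 13600.0, for macrophages and, by the widest margin, for neutrophils. It is also highest for class I, at 17250.0 beside 16730.0 in DBA smoked. Most of the macrophage difference within the DBA and C57 pairs is that of Chil3.

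The other genes of the pathway came from lists chosen with earlier results of these data known. For class II transcription and interferon gamma signalling, 0 of 13 genes tested were called for smoke or between strains, with list medians of -0.03 for smoke, 0.17 for ICR against DBA, 0.07 for ICR against C57 and 0.10 for DBA against C57. The largest differences from C57 were those of Rfxank, a subunit of the X box factor RFX, at -0.72 in ICR and -0.91 in DBA (limma, adjusted p = 0.193 and 0.166). For processing and loading, 0 of 10 were called, and Ctss, the protease that trims the invariant chain, differed from C57 by 0.75 in ICR and 0.72 in DBA (limma, adjusted p = 0.228 and 0.382). None of the 7 transport and turnover genes was called. Over the 3 pairs their median for smoke was -0.22, where all genes tested had 0.01, and all 7 lay below 0, led by Cd82 at -0.31. Ap1m1, Ap1s1 and Cd82 lay below 0 in each pair, while Cltc, Cd63, Cd37 and Cd9 lay above 0 in at least 1 pair. Of the costimulation genes 3 of 9 on the array were tested and none called, with Cd83, an activation marker of dendritic cells, at -0.48 for smoke. All of these smoke differences had an adjusted p of 0.99995 in limma.

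MHC class I genes, which present peptides from inside the cell, were taken beside them. Their 10 genes had 0 calls in every comparison, with medians of 0.02 for smoke, -0.19 for ICR against DBA, 0.16 for ICR against C57 and 0.35 for DBA against C57. B2m, the light chain of class I, differed from C57 by 0.85 in ICR and 0.89 in DBA (limma, adjusted p = 0.0693 and 0.0651), and H2-D1, a class I heavy chain, by 0.79 in DBA (limma, adjusted p = 0.0667). The class I sum was 14220.0 in ICR smoked, 13460.0 in ICR control, 16730.0 in DBA smoked, 17250.0 in DBA control, 10920.0 in C57 smoked and 11290.0 in C57 control, so ICR stood above C57 here and below it for class II.

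Genes of other tissue also separated the strains. All 5 skeletal muscle genes tested, Acta1, Atp2a1, Myh1, Tnnc2 and Tnnt3, fell in ICR and in DBA against C57, and Acta1, a muscle actin, also fell in ICR against DBA (-2.26, limma, adjusted p = 0.0295). Their sum was 141 in ICR smoked, 129 in ICR control, 207 in DBA smoked, 607 in DBA control, 3251 in C57 smoked and 4685 in C57 control. Of the 3 alveolar type II genes tested, Sftpb, a surfactant protein, fell in ICR against C57 (-0.997, limma, adjusted p = 0.0348), while Sftpc and Slc34a2 were not called. Their part in the H2-Ea and H2-Eb1 differences was not tested.

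The members varied together in part. Over the 6 arrays, which share strain and pair, Pearson's r of normalized levels was 0.99 between Cd74 and Ciita, 0.95 between H2-Ab1 and H2-DMb1, 0.88 between H2-Aa and H2-DMa (93092_at), 0.87 between H2-Ab1 and H2-Eb1 and 0.81 between H2-Oa and H2-Ob. H2-Ea went with Ciita at 0.79, with Cd74 at 0.72, with H2-Ab1 at 0.59 and with H2-DMb1 at 0.52. It went with H2-Aa at 0.24, with H2-Eb1 at 0.23 and with H2-DMa (93092_at) at 0.19. With H2-Ob it was at -0.50 and with H2-Oa at -0.74. These are descriptions of 6 arrays, 2 of each strain.

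Among 1698 other genes whose highest and lowest arrays differed by at least 1 on the log2 scale, the 5 most like the mean of the 9 genes without H2-Ea were Ccl8, Pde4b, C1qa, C1qb and Lsp1, with r from 0.957 to 0.987 over the 6 arrays. Ccl8, a chemokine, had deposited intensities of 7.18 in ICR smoked, 13.5 in ICR control, 46.4 in DBA smoked, 217 in DBA control, 71.8 in C57 smoked and 68.7 in C57 control. C1qa and C1qb are chains of complement C1q. The 5 most like H2-Ea were Egfr, Alad, Usp25, Gata6 and Lypla1, with r from 0.968 to 0.991. Of these Alad, an enzyme of haem synthesis, had deposited intensities of 188 in ICR smoked, 457 in ICR control, 1268 in DBA smoked, 898 in DBA control, 363 in C57 smoked and 358 in C57 control. Its normalized level was 1.47 higher in DBA than in C57. Genes picked for likeness to H2-Ea differ between DBA and C57 by that choice, so this difference is no separate result. The r values are the highest of 1698 genes over only 6 arrays.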

How the data were processed

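Total RNA of 6 lung samples was labelled with biotin and hybridised to Affymetrix arrays, per the labels' protocols. The deposited values are probe set intensities on a linear scale, 1 per probe set and array. How the authors summarised and scaled the probes, and with what software, is not given in the sources used. All columns belonged to a sample (0 did not). Array medians spread over 1.45 on the log2 scale, above the limit of 0.1 set for leaving values unscaled.

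From the deposited intensities, a level was made by adding 8.05 (percentile 20 of all values), taking log2 and quantile normalizing. The 66 control probe sets were included up to this step and removed after it. The filter on low signal kept means over percentile 40. Strains and smoke were fitted with limma 3.58.1 in R 4.3.3 (eBayes with a mean trend, 2 residual degrees of freedom), 2-sided. A strain's own response was fitted with 1 residual degree of freedom, taking its single pair to vary like the others. The fits were tested on simulated data. Of 12488 probe sets, 10855 had 1 gene symbol in the platform annotation, 396 several and 1237 none, and lists used the probe set with the highest mean per gene. Plots used Python 3.11.15 and matplotlib 3.10.9.

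The members and lists were chosen with earlier results of these data known. Named were every member and, of other lists, each called gene and up to 4 with the largest differences, plus the 5 genes most correlated with the members. Alternatives were other constants, filters, scalings and variance priors, no smoke term or strain block, and each array or pair left out. Sequences and coordinates are RefSeq's for GRCm38.p6.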

Additional observations from a re-analysis of the deposited data

How the results depend on the processing

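Beyond the pairing by strain used for smoke, no paired analysis was possible because every sample carries the number 1. Smoke called no class II probe set under any alternative, the fit without the strain block included. H2-Ea was called for DBA against C57 in all 14 alternatives that tested it (5.24 to 7.93) and for ICR against DBA in all 14 (-5.08 to -3.85), and for ICR against C57 in 13 of 14 (1.39 to 3.50). The alternatives that left out an array or pair kept the normalization and filter of all 6 arrays. A DBA array left out thus still helped H2-Ea to be tested, and these alternatives are not independent checks. H2-Eb1 was called in 13 of 15 for ICR against C57 (-2.31 to -1.30) and for ICR against DBA (-2.50 to -1.47). Keeping only means above the 60th percentile left 6 of the 11 probe sets, H2-Ea not among them, of which 0 were called for DBA against C57 (2.52% of all probe sets), 1 for ICR against C57 (3.22%) and 1 for ICR against DBA (1.77%). Leaving out 1 array gave 1 to 2 of 11 calls for DBA against C57 (1.37% to 4.00% of all), 0 to 2 for ICR against C57 (0.429% to 6.94%) and 1 to 3 for ICR against DBA (0.161% to 2.95%). Without scaling the ICR response called 2 of 11, H2-Ea and H2-DMb1, as against 24.0% of all probe sets, whose median was -0.99. Signal limits the C57 values of H2-Ea, since both arrays read it below the constant.

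Signs turned only for probe sets that were not called, and the cause was not tested. Without scaling, which moved the median of all probe sets by -0.21, -0.73 and -0.89 for smoke, ICR against C57 and ICR against DBA, the values were -0.10 for smoke in H2-DMa (93092_at), -0.56 for ICR against C57 in Ciita, and -0.59 and -0.88 for ICR against DBA in H2-DMa (162346_f_at) and H2-Oa. With a common median they were 0.028 for smoke in Cd74 and, for DBA against C57, -0.18 in H2-Aa, -0.14 in H2-Eb1 and -0.18 in H2-DMa (93092_at). Leaving out 1 pair gave for smoke -0.29 to 0.060 in H2-Aa, -0.27 to 0.032 in H2-Oa, -0.32 to 0.12 in H2-Ob, -0.18 to 0.14 in Cd74, -0.23 to 0.11 in Ciita and -0.10 to 0.36 in H2-DMa (93092_at). Leaving out 1 array gave for DBA against C57 -0.14 to 0.31 in H2-Aa, -0.034 to 0.33 in H2-Eb1, -0.28 to 0.46 in H2-DMa (93092_at) and -0.083 to 1.17 in H2-DMb1. It gave for ICR against C57 -0.18 to 0.20 in Ciita, -0.56 to 0.030 in H2-Aa, -0.21 to 0.15 in Cd74 and -1.21 to 0.037 in H2-DMb1, and for ICR against DBA -0.25 to 0.91 in H2-DMa (162346_f_at), -0.21 to 0.25 in H2-Oa and -0.37 to 0.27 in H2-Ob.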
